A study of Mus musculus with 27 samples.

Results

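Imprinted genes are expressed mainly from the copy inherited from 1 parent. The 10 genes described here, Peg3, Usp29, Mest, Peg10, Sgce, Plagl1, Grb10, Igf2r, Airn and Nnat, lie in domains imprinted by DNA methylation set in the oocyte, outside the distal and central domains of chromosome 7. They were chosen by gene symbol from this class of domain, and all 10 were found among the 24065 genes of the RNA-Seq count table and among the 15114 genes tested. RNA was measured in whole embryos at embryonic day 8.5 (E8.5), in 3 wild-type (WT) and 3 Dnmt3b-/- littermates of the C57BL/6J strain, with 1 library for each embryo. The Dnmt3b-/- embryos were homozygous for a catalytically inactive allele, produced from a floxed Dnmt3b allele with an ACTB-Cre deleter line, and came from matings of heterozygous parents, whose gametes had therefore set their imprints with 1 intact copy of Dnmt3b. DNMT3B is 1 of the enzymes that set new DNA methylation in the embryo, and the question addressed by this comparison was whether the dosage of these genes was kept without it. The sex of the embryos is not given in the labels. The counts do not separate the parental alleles, so a total level is described throughout, and in a whole embryo fewer cells of a type and less RNA per cell cannot be told apart.

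A germline differentially methylated region (DMR) is a stretch methylated in only one of the gametes. At a maternal germline DMR the oocyte's mark usually covers a promoter, so that the maternal copy is silent and the paternal copy is expressed. After fertilization the mark is copied at each division by DNMT1, with the zinc finger protein ZFP57 and its partner TRIM28 protecting it from the erasure that the rest of the genome undergoes. Of the genes described here, Peg3, Usp29, Mest, Peg10, Sgce, Plagl1, Airn and Nnat are known as paternally expressed. In the remaining pair the maternal copy is the main source of RNA in most embryonic tissues: the DMR of Igf2r is the promoter of the antisense RNA Airn, which silences Igf2r on the paternal chromosome, and the DMR of Grb10 lies at a promoter used mainly in neurons.

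Promoter sequences are given for the genes whose RNA changed in opposite directions within 1 domain, Igf2r and Airn, and for both genes that held the recognition motif of ZFP57. They are the 250 bases upstream of the start in RefSeq, on the strand of the gene, in build GRCm38.p6, and capitals mark the motif TGCCGC or its reverse complement GCGGCA. Mest has 3 windows in RefSeq because its transcripts differ in their start, and the one shown, chosen because it holds the motif, lay at chr6:30737800-30738049 on the plus strand, inside the gene. Plagl1 lay at chr10:13090582-13090831 on the plus strand, Igf2r at chr17:12769707-12769956 on the minus strand and Airn at chr17:12741061-12741310 on the plus strand.
Mest: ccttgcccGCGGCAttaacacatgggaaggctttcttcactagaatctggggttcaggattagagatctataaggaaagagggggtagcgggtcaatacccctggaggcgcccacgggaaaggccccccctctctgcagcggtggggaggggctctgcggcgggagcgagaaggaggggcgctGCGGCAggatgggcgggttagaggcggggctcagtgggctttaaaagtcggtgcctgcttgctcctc
Plagl1: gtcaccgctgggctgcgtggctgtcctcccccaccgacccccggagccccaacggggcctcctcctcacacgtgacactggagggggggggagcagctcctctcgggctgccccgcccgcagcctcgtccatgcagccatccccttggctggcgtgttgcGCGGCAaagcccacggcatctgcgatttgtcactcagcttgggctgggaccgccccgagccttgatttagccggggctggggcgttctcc
Igf2r: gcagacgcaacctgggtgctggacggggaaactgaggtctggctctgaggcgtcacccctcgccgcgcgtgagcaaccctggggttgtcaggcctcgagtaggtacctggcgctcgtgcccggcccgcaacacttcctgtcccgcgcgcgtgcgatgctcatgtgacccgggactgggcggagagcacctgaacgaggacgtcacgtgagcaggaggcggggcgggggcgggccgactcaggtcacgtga
Airn: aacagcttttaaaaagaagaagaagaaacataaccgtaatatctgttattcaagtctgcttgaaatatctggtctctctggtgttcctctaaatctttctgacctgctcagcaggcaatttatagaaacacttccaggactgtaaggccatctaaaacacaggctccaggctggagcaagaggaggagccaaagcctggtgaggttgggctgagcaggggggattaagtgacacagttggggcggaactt

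The Mest window shown held 2 matches of the motif and the Plagl1 window 1, whereas 8.68% of the 32851 RefSeq windows of the same length held at least 1. A second Mest window, shifted by 3 bases, held the same 2 matches, and the window before the first base of the gene, chr6:30733256-30733505, held 0. The windows of Peg3, Usp29, Grb10, Igf2r, Airn and Nnat held none, and Peg10 and Sgce had no window in the table used. CpG dinucleotides numbered 14 in the Mest window shown and 7 in that before the first base of the gene, 19 upstream of Plagl1 and 27 upstream of Igf2r, against a median of 6 over all windows. Upstream of the Airn start there were only 2. These counts describe the letters of the windows, which stop at the start of a transcript and need not cover the DMR. Methylation was not analysed here.

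The 6 libraries held between 41489332 and 58470286 counts on genes, and counts were scaled to a common library size by the trimmed mean of M values (TMM) to give normalized counts. Dnmt3b itself had 9197, 12195 and 7120 raw counts in WT embryos 1, 2 and 3 and 4068, 3904 and 4196 in the Dnmt3b-/- embryos, counted over the whole gene and not over the inactivated part alone. WT embryo 2 and Dnmt3b-/- embryo 3 stood apart from their groups, with correlations of 0.970 to 0.979 and 0.967 to 0.969 with the other embryos of their genotype. Dnmt3b-/- embryo 3 had the fewest genes detected (16035). In WT embryo 2 Rn45s was the most abundant gene, and the summed level of 9 extraembryonic endoderm markers was 182175 normalized counts against 20815 to 57531 in the other WT embryos. It also had the lowest WT sums of primitive erythroid markers (11845 against 44957 and 66639) and heart markers (22669 against 38854 and 40656). The same held for neural tube markers (7559 against 8897 and 9081), while its paraxial mesoderm and tailbud sum was the highest in WT (7786). The reason was not tested. The trophoblast genes Prl3d1, Prl2c2 and Tpbpa and the decidual gene Prl8a2 had 0 counts in all 6 libraries, but other markers of both lists were detected. The 5 decidual markers summed to 2298 to 2879 normalized counts in WT and 2911 to 3071 in Dnmt3b-/- embryos. These sums did not overlap, a separation found for 51.8% of all genes tested. Hand2 was higher in every Dnmt3b-/- embryo than in any WT embryo (means 1817 and 1143), while Prlr, Wnt4 and Des overlapped. Whether maternal tissue was present was not tested.

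In WT embryos these genes ranged from low to very high expression, from above 21.6% to above 99.2% of the genes tested. Levels are given here as FPKM, the count divided by exon length and library size, which allows genes of different length to be compared. Mest, a hydrolase-like protein of mesodermal tissue, was the most abundant at 574 ± 76.4 FPKM (SD, n = 3), and Grb10, an adaptor protein that restrains growth factor signalling, followed at 304 ± 38.5. Peg3, a zinc finger protein, stood at 135 ± 7.42, Nnat, a small membrane protein named neuronatin, at 97.6 ± 17.7, and Igf2r, the receptor that clears the growth factor IGF2, at 69.0 ± 13.4. Peg10, a gene derived from a retrotransposon and known for its need in the placenta, had 48.3 ± 2.61 FPKM and its neighbour Sgce, which encodes epsilon-sarcoglycan, had 18.8 ± 1.24. The least abundant were Plagl1, a zinc finger transcription factor, at 7.67 ± 3.00, Airn at 3.48 ± 0.37 and Usp29, a gene of the ubiquitin-specific protease family, at 0.81 ± 0.08. Each gene lay above the next within every WT embryo, and across the WT embryos only the ranges of Nnat and Igf2r overlapped. In Dnmt3b-/- embryos the order was the same apart from 1 exchange: Peg10 had 69.4 ± 10.8 FPKM and stood above Igf2r, at 40.3 ± 8.82, with no overlap between the 3 embryos' values of these genes.

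**Figure D1:**
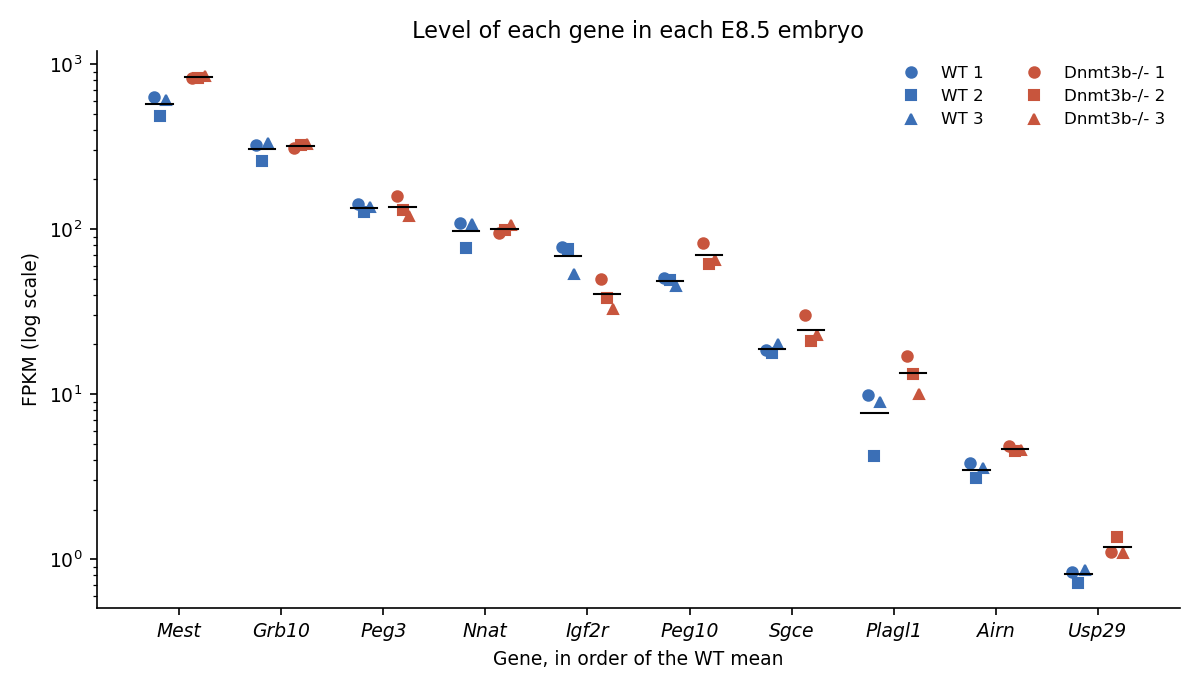
FPKM (log scale) of each of the 10 genes in each embryo, ordered by the WT mean. Blue symbols are the 3 WT and red symbols the 3 Dnmt3b-/- embryos, the symbol shape gives the embryo number within its genotype (not used to pair embryos) and the black bars are means. Mest was highest in both genotypes (574 and 830 FPKM on average) and Usp29 lowest (0.81 and 1.19), and Igf2r is the only gene whose Dnmt3b-/- values all lie under the WT values.

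The 10 genes were each tested with the quasi-likelihood test of edgeR, and p-values were adjusted over all 15114 genes by the Benjamini-Hochberg method. At an adjusted p below 0.05, 4 genes rose in Dnmt3b-/- embryos (Usp29, Mest, Peg10 and Airn) and 1 fell (Igf2r), and the other 5 did not pass. Among all genes tested 17.6% passed as higher and 18.1% as lower. None of the 10 genes passed with a change above 2-fold, which 5.90% of all genes did in either direction. The median log2 fold change was 0.41, against -0.03 over all genes. The values of the 3 Dnmt3b-/- embryos all lay above those of the 3 WT embryos for 6 genes and all below them for 1, a separation found for 51.8% of all genes. For 8 of the 10 genes the whole 95% confidence interval of the change lay within 2-fold, as it did for 62.1% of all genes. Plagl1 and Igf2r were the exceptions.

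By the copy known to be expressed, all 8 paternally expressed genes had a positive log2 fold change, from 0.01 to 0.81. Their median was 0.47, against -0.03 over all genes. Of the 8, 4 passed as higher, against 17.6% of all genes. They are not 8 independent cases: Peg3 and Usp29 start 97 bases apart, and Peg10 and Sgce 102. The 2 maternally expressed genes did not move alike: Igf2r fell and Grb10 had a log2 fold change of 0.07. For the genes near 0 the sign was not stable. With libraries scaled by their total counts, the values of Peg3, Grb10 and Nnat turned to -0.06, -0.01 and -0.05. With TMM scaling but without WT embryo 2 they were -0.03, -0.03 and -0.12.

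**Figure D2:**
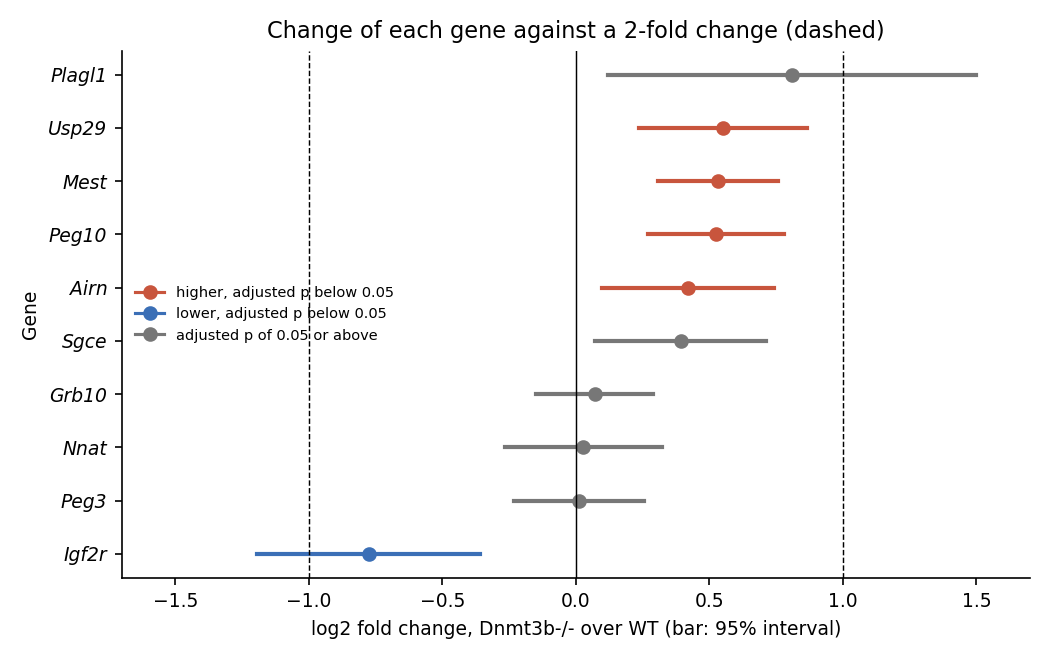
Log2 fold change of each gene, Dnmt3b-/- over WT embryos (n = 3 and 3), with its 95% confidence interval. Dashed lines mark a 2-fold change in either direction: the intervals of Plagl1 (0.12 to 1.50) and Igf2r (-1.19 to -0.36) cross them and the other 8 do not.

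Mest (chr6:30733506-30748466, plus strand, GRCm38.p6 as for all positions given) showed the increase with the smallest adjusted p. Its normalized counts were 83627, 64812 and 81003 in WT embryos and 109539, 109717 and 112619 in Dnmt3b-/- embryos. The Dnmt3b-/- embryos were nearly identical, with a coefficient of variation of 1.56%, and WT embryo 2 was the lowest of all. The increase was 1.45-fold, with a log2 fold change of 0.53 (standard error 0.10, 95% interval 0.31 to 0.76) and an adjusted p of 0.00432 in edgeR. It passed in all 17 alternative analyses, and was 0.43 without WT embryo 2 and 0.35 (adjusted p = 0.0382) with the correction for GC content and length. Mest is abundant in mesoderm. The summed level of 7 paraxial mesoderm and tailbud markers was 7348 to 7786 normalized counts in WT and 8441 to 11246 in Dnmt3b-/- embryos. These sums did not overlap, a separation found for 51.8% of all genes. Of these markers 1 of 7 rose and none fell, against 17.6% and 18.1% of all genes. Their median log2 fold change was 0.40. T, the most abundant on average, overlapped between genotypes (adjusted p = 0.122), and Uncx had a value of -0.70. For 6 heart markers the sums overlapped and the median was -0.29, with 1 gene higher and 1 lower. The part of these markers in the change of Mest was not tested.

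The Mest intron hosts the microRNA gene Mir335, whose 5p product is printed with its seed (bases 2 to 8) in capitals because the gene was counted separately and rose as well. It lies at chr6:30741314-30741336 on the plus strand, GRCm38.p6.
miR-335-5p: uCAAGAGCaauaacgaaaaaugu

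Mir335 had 222, 167 and 141 normalized counts in WT and 266, 401 and 280 in Dnmt3b-/- embryos, with no overlap. Its log2 fold change was 0.83 (standard error 0.25) with an adjusted p of 0.0303. Reads on the hairpin and reads on the unspliced Mest intron cannot be told apart in these libraries, which were not selected for small RNA. Copg2, which runs against Mest and shares 913 bases of exon with it (32.9% of the Mest exons), fell slightly, from 3756, 3838 and 3983 to 3432, 3363 and 3292 normalized counts (log2 fold change -0.20, adjusted p = 0.0352). The library kit marks the strand, but the strand setting used for counting is not given, so reads of the shared exon are uncertain between the 2 genes.

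Peg10 (chr6:4747306-4760517, plus strand) and Sgce (chr6:4674350-4747204, minus strand) are transcribed away from each other from starts 102 bases apart. Peg10 had 16085, 15744 and 14499 normalized counts in WT embryos and 26178, 19794 and 20665 in Dnmt3b-/- embryos. Its lowest Dnmt3b-/- value lay above its highest WT value, and Dnmt3b-/- embryo 1 was well above the other two. The increase was 1.44-fold (log2 fold change 0.52, standard error 0.11, adjusted p = 0.00767), and it passed in all 17 alternatives. The summed level of 8 trophoblast markers, low throughout, was 224 to 410 normalized counts in WT and 793, 245 and 298 in Dnmt3b-/- embryos 1, 2 and 3. Plac1 alone made up 742 of the 793 in Dnmt3b-/- embryo 1, where Elf5, at 35.0, was lower than in Dnmt3b-/- embryos 2 and 3 (59.3 and 74.6), and the part of these genes in the change of Peg10 was not tested. Sgce had 1659, 1593 and 1810 normalized counts in WT embryos and 2708, 1891 and 2047 in Dnmt3b-/- embryos. Its groups did not overlap either, and Dnmt3b-/- embryo 1 was again the highest. The log2 fold change of 0.39 (95% interval 0.07 to 0.71) had an adjusted p of 0.0587 and did not pass in edgeR, while DESeq2's Wald test gave an adjusted p of 0.0154. The value was 0.14 (adjusted p = 0.533) in a fit corrected for GC content and length and 0.24 (0.110) without Dnmt3b-/- embryo 1. Within an embryo the log2 ratio of Peg10 to Sgce, in FPKM, averaged 1.36 in WT and 1.50 in Dnmt3b-/- embryos, a difference of 0.14 (exact permutation test, two-sided, p = 0.3, adjusted p = 0.3 over 3 pairs, where 3 embryos against 3 cannot go below 0.1).

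Peg3 (chr7:6703892-6730462, minus strand) and Usp29 (chr7:6730559-6967220, plus strand) also share a promoter region, with starts 97 bases apart on opposite strands, but their RNAs differed. Peg3 had 45203, 40488 and 42988 normalized counts in WT and 50277, 41617 and 37956 in Dnmt3b-/- embryos. The Dnmt3b-/- embryos lay on both sides of the WT range. The log2 fold change was 0.01 with a 95% interval of -0.23 to 0.26 and an adjusted p of 0.936, so a change of the size seen for Mest lies outside its interval. Usp29 had 595, 511 and 609 normalized counts in WT embryos against 783, 965 and 768 in Dnmt3b-/- embryos. All 3 Dnmt3b-/- values were above the WT values. The increase was 1.47-fold (log2 fold change 0.55, standard error 0.14, adjusted p = 0.0152), and it was lost without Dnmt3b-/- embryo 2, at a log2 fold change of 0.44 and an adjusted p of 0.0657.

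The log2 ratio of Peg3 to Usp29 was 7.40, 7.46 and 7.29 in WT and 7.16, 6.58 and 6.78 in Dnmt3b-/- embryos. It was lower in each Dnmt3b-/- embryo than in any WT embryo, by 0.55 on average (exact permutation test, two-sided, p = 0.1, the smallest this design allows, adjusted p = 0.15). Usp29 overlaps the antisense gene Zim3 over 2582 bases of exon (17.6% of the Usp29 exons), and Zim3 had at most 18 raw counts in any embryo and was not tested. Zim1, the maternally expressed neighbour, had a log2 fold change of 0.32 with an adjusted p of 0.409.

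Igf2r (chr17:12682406-12769706, minus strand) was the only gene of the 10 that fell. Its normalized counts were 33508, 32244 and 22983 in WT embryos and 21400, 16461 and 13969 in Dnmt3b-/- embryos. The groups did not overlap, but WT embryo 3 and Dnmt3b-/- embryo 1 were close. The Dnmt3b-/- level was 0.584 times the WT level (log2 fold change -0.78, standard error 0.18, 95% interval -1.19 to -0.36, adjusted p = 0.0119). The call was lost by a small margin without Dnmt3b-/- embryo 2 (adjusted p = 0.0565) and without Dnmt3b-/- embryo 3 (0.0504).

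Markers of extraembryonic endoderm, the outer layer of the yolk sac, varied widely between embryos. The summed level of the 9 extraembryonic endoderm markers (Afp, Ttr, Apoa1, Apoa4, Apob, Amn, Cubn, Hnf4a and Rbp4) was 57531, 182175 and 20815 normalized counts in WT embryos 1, 2 and 3 and 41923, 27025 and 11457 in Dnmt3b-/- embryos 1, 2 and 3. These ranges overlapped. The median log2 fold change of the markers was -1.29, and 1 of the 9 passed as lower, against 18.1% of all genes. Within each genotype the embryo with the smallest sum also had the least Igf2r. The largest sum went with the most Igf2r in Dnmt3b-/- embryos but not in WT. There embryo 2 had the largest sum but less Igf2r than embryo 1 (32244 against 33508 normalized counts). In a fit with this sum as a second term, chosen after the values were seen, the log2 fold change of Igf2r was -0.51 (standard error 0.14, adjusted p = 0.0269), against -0.78 in the main fit. Leaving out WT embryo 2 gave -0.71 (adjusted p = 0.0216). The part of these cells in the change of Igf2r was not tested, and with 6 embryos it cannot be told apart from genotype.

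Airn (chr17:12741311-12859884, plus strand) is the long noncoding RNA that starts within Igf2r and runs against it, over 28396 shared bases of gene but no shared exon. Its normalized counts were 401, 324 and 373 in WT embryos and 509, 477 and 484 in Dnmt3b-/- embryos. The Dnmt3b-/- embryos lay close together and above all WT embryos. The log2 fold change was 0.42 (standard error 0.14) with an adjusted p of 0.0472, just inside the threshold. This call was fragile: it was lost in all 6 leave-one-out fits and in 6 of the 11 other alternatives, with values of 0.34 to 0.49 in the first 6. With the correction for GC content and length it was 0.19 (adjusted p = 0.372). Most of Airn is not spliced, and the counts cover its annotated exons alone.

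The log2 ratio of Igf2r to Airn was 4.36, 4.61 and 3.92 in WT embryos and 3.36, 3.08 and 2.82 in Dnmt3b-/- embryos. The Dnmt3b-/- embryos all lay under the WT embryos, with a mean difference of -1.20 (exact permutation test, two-sided, p = 0.1, adjusted p = 0.15). The neighbours Slc22a3, Mas1, Plg and Slc22a2 did not pass the test, and their intervals were wide, as for Slc22a3 with a log2 fold change of 0.47 (95% interval -0.59 to 1.54).

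**Figure D3:**
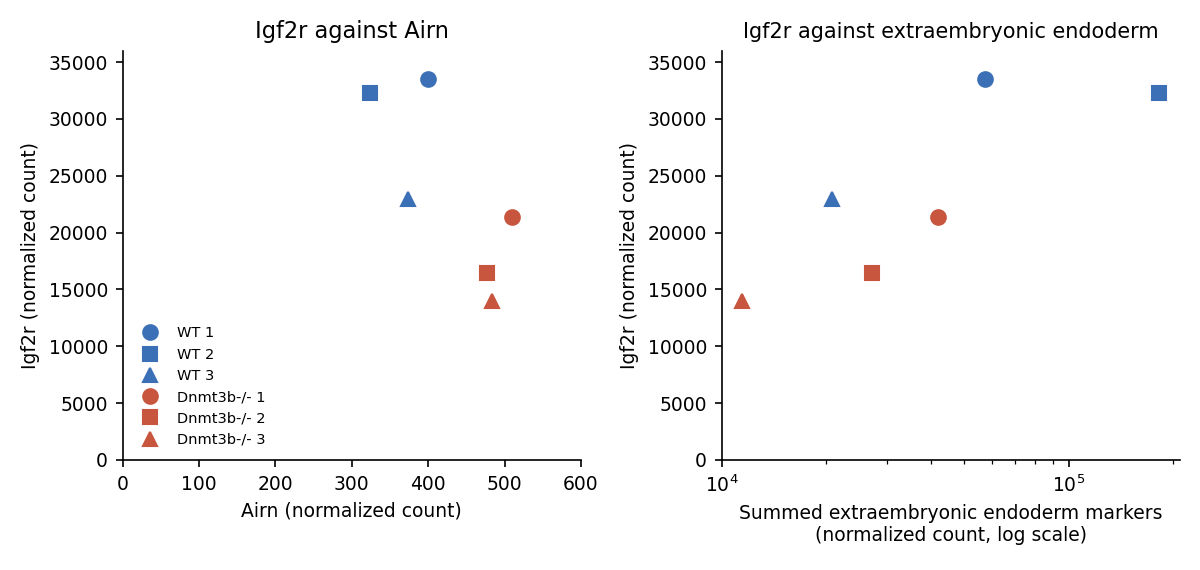
Normalized count of Igf2r in each embryo against that of Airn (left) and against the summed level of 9 extraembryonic endoderm markers (right, log scale). Symbols are single embryos, blue for WT and red for Dnmt3b-/-. The genotypes separate on both axes of the left panel, while on the right the marker sums of the genotypes overlap (WT 20815 to 182175, Dnmt3b-/- 11457 to 41923).

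Plagl1 (chr10:13090832-13131694, plus strand) had the largest estimate of the 10 genes and the least certain one. Its normalized counts were 2516, 1089 and 2292 in WT embryos and 4355, 3418 and 2570 in Dnmt3b-/- embryos. The groups did not overlap, but WT embryo 2 had less than any other embryo by a wide gap, and Dnmt3b-/- embryo 3 was close to WT embryo 1. The log2 fold change of 0.81 had a standard error of 0.30, a 95% interval of 0.12 to 1.50 and an adjusted p of 0.0676. Without WT embryo 2 the value was 0.52 (adjusted p = 0.0596). Among the flanking genes, Phactr2 and Ltv1 rose, with log2 fold changes of 0.48 (adjusted p = 0.0151) and 0.31 (adjusted p = 0.0082). Fuca2 had a value of -0.29 and did not pass.

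Grb10 (chr11:11930499-12037428, minus strand) and Nnat (chr2:157560078-157562525, plus strand), like Peg3, had estimates near 0 with narrow intervals. Grb10 had 80909, 65286 and 82946 normalized counts in WT embryos and 77542, 81257 and 81912 in Dnmt3b-/- embryos. Apart from WT embryo 2 the embryos differed little. The 95% interval of its log2 fold change was -0.15 to 0.29 (adjusted p = 0.598). Nnat had 6939, 4951 and 6894 normalized counts in WT and 6098, 6290 and 6771 in Dnmt3b-/- embryos, with WT embryo 2 again the lowest. Its interval was -0.26 to 0.32 (adjusted p = 0.885). The exons of Nnat hold 58.4% G and C, the highest share of the 10 genes, and in a fit corrected for GC content and length its log2 fold change became 0.47 (adjusted p = 0.0379). Blcap, in whose intron Nnat lies, and the next gene Ctnnbl1 rose, by 0.48 (adjusted p = 0.0179) and 0.28 (adjusted p = 0.0175) on the log2 scale.

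Across the 7 domains, 26 of 30 listed neighbouring genes were in the table and 24 were tested. Of these 6 rose (Mir335, Pon2, Phactr2, Ltv1, Blcap and Ctnnbl1), 1 fell (Copg2) and 17 did not pass, with a median log2 fold change of 0.25. Over all genes 17.6% passed as higher and 18.1% as lower. In the Peg10 domain Pon2, a paraoxonase, rose by 0.50 (adjusted p = 0.0293), and Casd1, Ppp1r9a and Asb4, which lie on either side of the Peg10 and Sgce promoters, had values of 0.26, 0.07 and 0.40 that did not pass.

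**Figure D4:**
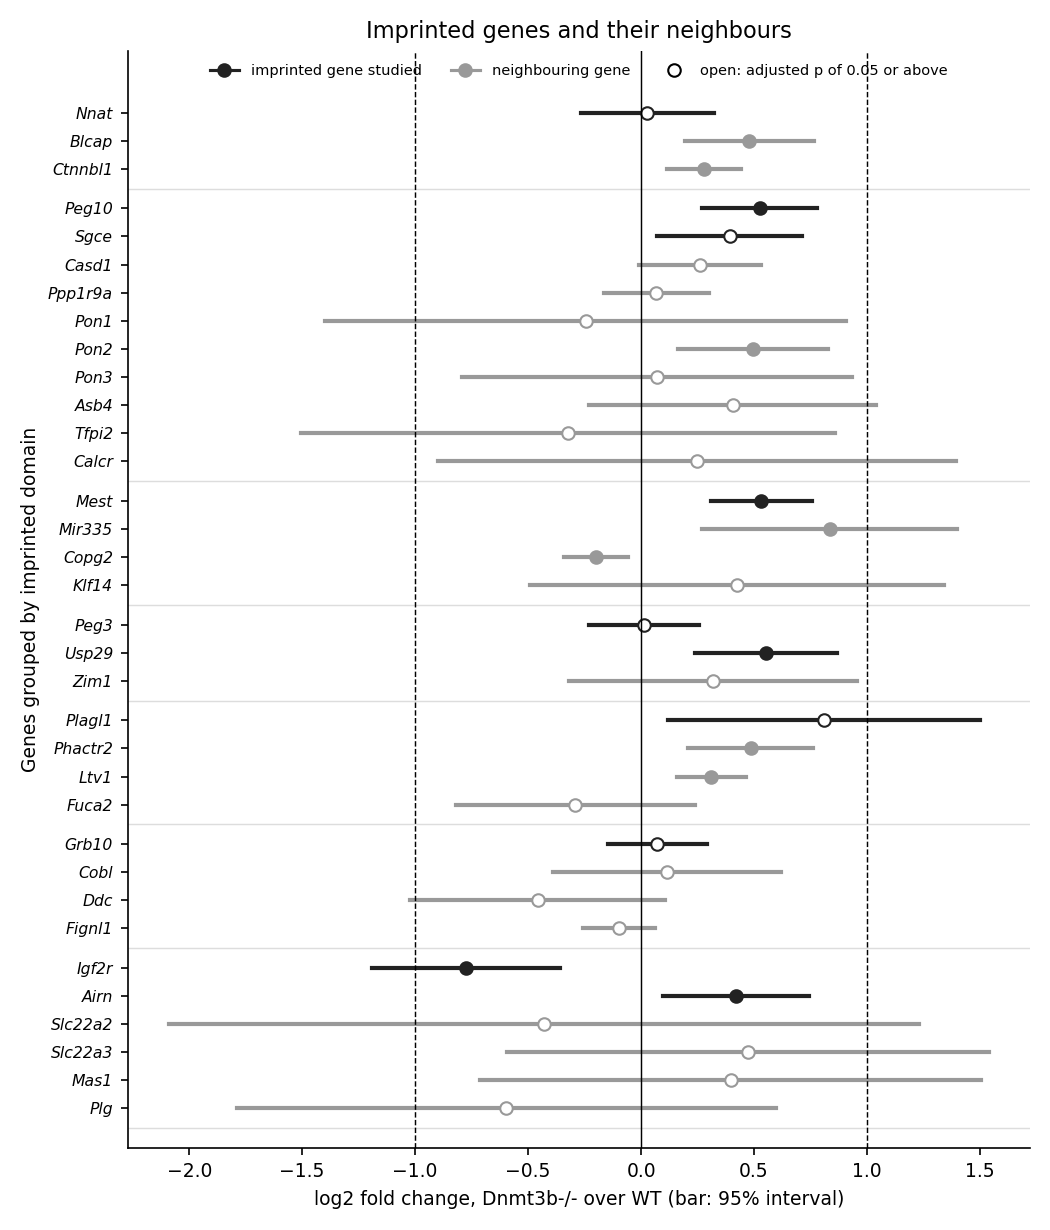
Log2 fold change with 95% confidence interval of the 10 imprinted genes (black) and the 24 neighbouring genes tested (grey), grouped by domain, where filled circles have an adjusted p below 0.05. Genes of 1 domain did not share a value: Peg3 (0.01) lies beside Usp29 (0.55), and Igf2r (-0.78) beside Airn (0.42).

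Other imprinted genes were compared by their counts. Of 12 tested genes of further maternal germline DMRs, Mcts2 rose (log2 fold change 0.49, adjusted p = 0.0153) and Trappc9 fell (-0.42, adjusted p = 0.0314), and the median was 0.09. Of 7 tested genes of paternal germline DMRs, where the sperm carries the mark, 4 rose (H19, Igf2, Meg3 and Mirg) and 2 fell (Dlk1 and Rtl1). Among them 1 in each direction, Mirg and Rtl1, changed by more than 2-fold, and the median was 0.44. Rtl1 rests on few raw counts: 97, 35 and 89 in WT and 21, 1 and 15 in Dnmt3b-/- embryos. Over all genes 17.6% passed as higher, 18.1% as lower and 5.90% with a change above 2-fold in either direction. Whether these lists differ from the 10 genes or from all genes was not tested.

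Among the factors that maintain imprints, 5 of 10 rose (Zfp57, Zfp445, Uhrf1, Hells and Smchd1) and 1 fell (Trim28). Over all genes 17.6% passed as higher and 18.1% as lower. The median log2 fold change of the factors was 0.30, and whether they differ from all genes as a list was not tested. Zfp57 had 759, 635 and 754 normalized counts in WT and 1065, 844 and 908 in Dnmt3b-/- embryos (log2 fold change 0.39, adjusted p = 0.0499, just inside the threshold). Its partner Trim28 fell, from 47637, 45184 and 46367 to 37438, 34963 and 33635 (-0.39, adjusted p = 0.0033). Uhrf1, which recruits DNMT1 to replicating DNA, rose by 0.54 on the log2 scale (adjusted p = 0.001), and Dnmt1 itself had a value of 0.05 with an interval of -0.10 to 0.21.

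Igf2r and Grb10 act in the insulin-like growth factor (IGF) pathway, of which 18 listed genes were tested. Of these 3 rose and 5 fell, against 17.6% and 18.1% of all genes tested, and the median was -0.05. The ligands Igf2 and Igf1 rose by 0.44 (adjusted p = 0.0178) and 0.58 (adjusted p = 0.0094). The signalling receptor Igf1r had a value of -0.11 and did not pass. Besides Igf2r, the genes that fell were the adaptor Irs2 (-0.56), the binding proteins Igfbp2 (-0.83) and Igfbp4 (-0.56) and the RNA-binding protein Igf2bp1 (-0.67). Its relative Igf2bp2 rose by 0.64 on the log2 scale.

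The calls on the 10 genes differed in how well they held when the analysis was changed. Mest and Peg10 passed in all 17 alternatives, Igf2r in 15, Usp29 in 14 and Airn in 5. Of the genes that did not pass, Sgce passed in 3 alternatives, Nnat in 2 and Plagl1 in 1, and Peg3 and Grb10 in none. Calls on the listed genes outside the 10 are given from the main fit alone.

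**Figure D5:**
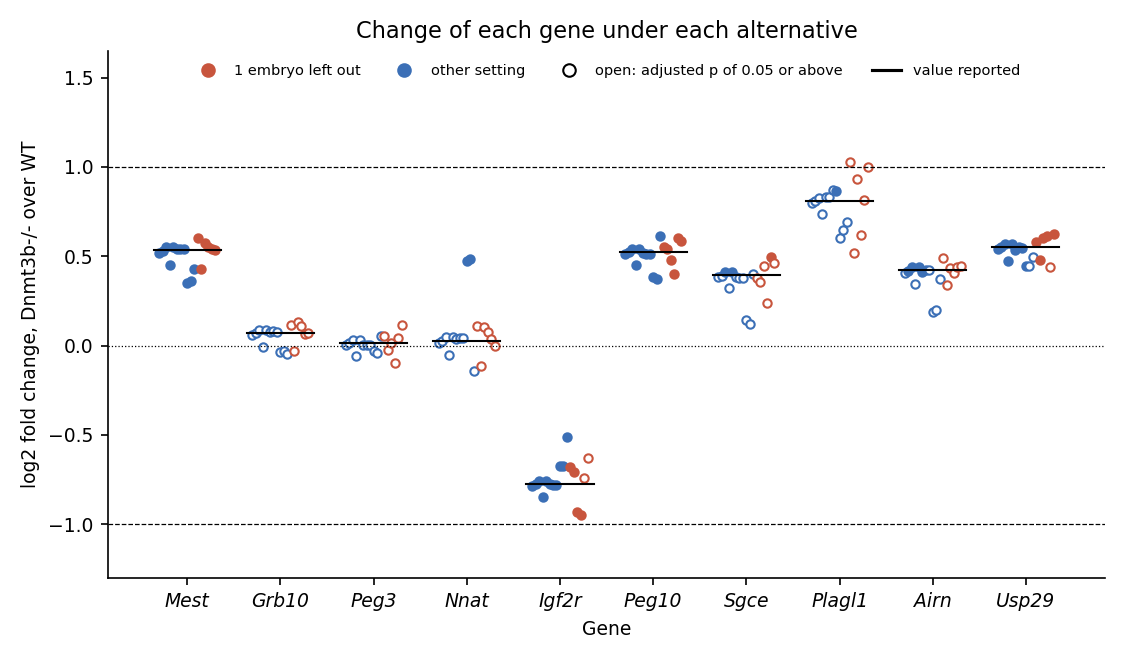
Log2 fold change of each gene under the 17 alternative analyses: red, 1 embryo left out (6 fits), blue, another filter, scaling, test or covariate (11 fits), filled where the adjusted p was below 0.05, with a black bar at the value reported. Mest and Peg10 passed under all 17, Igf2r under 15 and Airn under 5, and dashed lines mark a 2-fold change.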

How the data were processed

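Whole E8.5 embryos were sequenced as rRNA-depleted, stranded total RNA in read pairs. Per the labels, the authors aligned reads to mm10 with TopHat2 2.0.12 and counted them with HTSeq 0.6.0. The authors deposited raw counts for each embryo, which were used here. The strand setting and the RefSeq release are not given in the sources used here. The normalized signal deposited by the authors (DESeq2 1.4.5), their log2 fold change and their adjusted p-value were not used.

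Raw counts were scaled by TMM and tested with edgeR 4.0.16 (quasi-likelihood) in R 4.3.3, keeping genes whose mean reached 10 counts, and adjusted by Benjamini-Hochberg. The fit held both genotypes, 3 embryos each, without covariates, and was tested on simulated data. The standard error is the log2 fold change divided by the square root of F. FPKM was computed from raw counts and RefSeq exon length (GRCm38.p6; 99.2% of genes matched). Exact permutation tests compared ratios of neighbouring genes. Alternatives used DESeq2 1.42.0 and limma 3.58.1. At these depths (41489332 to 58470286 counts) 3 counts equal 2.37 to 3.49 normalized counts, for counting error only. P-values measure the spread between single embryos. The genes and lists were chosen with earlier results of these data known: all 10 genes are named, of other lists those that passed or flank a named gene. Zim3 and the named listed genes that did not pass were picked with their values in view. Methylation libraries were not analysed here. A listed neighbouring gene is not reported here.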

Additional observations from a re-analysis of the deposited data

How the results depend on the processing

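Over 17 alternatives, 133 of 170 values of the 10 genes kept their direction and their side of the threshold. Mest and Peg10 passed in all 17. With libraries scaled by total counts, which moves the median of all genes from -0.03 to -0.11, Peg3 was at -0.060, Grb10 at -0.0081 and Nnat at -0.052 (log2). With a correction for GC content and length, Peg3 was at -0.031 and Grb10 at -0.038, and the median of the 10 genes fell to 0.27 from 0.41. The replicate number as a block gave 4 genes higher, 1 lower and a median of 0.40, and 2172 higher and 2239 lower calls over all genes against 2654 and 2741. Same-numbered embryos did not deviate together (correlations -0.05, -0.15 and -0.01). With 3 embryos in each genotype these values cannot show whether the numbers mark pairs, and the main fit took the embryos as unpaired. The block with the GC and length correction gave Peg3 at -0.042, Grb10 at -0.030, Sgce at 0.12 and Airn at 0.20, and Usp29 no longer passed (adjusted p = 0.0728). With the extraembryonic endoderm sum as a covariate, an alternative added once the data had been seen, 2 genes were higher in place of 4 (Mest and Peg10), while the share of all genes called fell from 35.7% to 25.5%, Usp29 had an adjusted p of 0.0562 and Airn of 0.145, Grb10 was at -0.047 and Nnat at -0.14. Leaving out 1 embryo at a time gave 3 genes higher in each of 6 fits (Usp29, Mest and Peg10, with Sgce in place of Usp29 without Dnmt3b-/- embryo 2), with 23.7% to 35.4% of all genes called, 0 to 1 lower (Igf2r lost without Dnmt3b-/- embryo 2 or 3), and a median of 0.32 to 0.45, with Peg3 from -0.095 to 0.11, Grb10 from -0.030 to 0.13 and Nnat from -0.12 to 0.11. Sgce passed without Dnmt3b-/- embryo 2 (adjusted p = 0.0473) and with DESeq2 size factors (0.0462), and Plagl1 with the block (0.0442). Apart from what a setting itself removes, the cause was not tested. With 3 embryos in each genotype, precision is limited to the width of the intervals given, and Airn and Usp29 rest on the fewest counts.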
